A study of Homo sapiens with 9 samples.

Results

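The HOX cluster genes were all entries of the count table with a protein-coding type and a name made of HOX, a cluster letter from A to D and a number. The rule used names only, and it found 40 of the 57820 genes, which carry 39 gene names because HOXC4 was listed under both ENSG00000198353.6 and ENSG00000273266.1. HOXA held 11 entries, HOXB 10, HOXC 10 and HOXD 9. The values were counts of read pairs from Chrom-seq, in which an enzyme brought to marked chromatin biotinylates nearby RNA and the captured polyadenylated RNA is sequenced. All 9 libraries came from HEK293T, an established human embryonic kidney cell line, transfected with plasmids for 48 h, given 500 µM biotin-aniline for 30 min and then 1 mM H2O2 for 1 min. Every group expressed the peroxidase APEX2 fused to an antibody fragment from the chicken β-actin promoter, together with a SunTag array of GCN4 peptides, which that fragment binds, from the cytomegalovirus promoter. The array of the CBX1 group was fused to the H3K9me3-binding chromodomain of CBX1 (HP1β), that of the CBX1_W42A group to this chromodomain with the W42A change, and that of the Control group to no reader. The labels of the count columns carry NLS (nuclear localization signal) in all 3 groups, Control included. Each group had 3 libraries. The samples of Control and CBX1 are numbered consecutively, and those of CBX1_W42A stand apart from them. The labels do not say whether all groups were prepared together. In comparisons with CBX1_W42A, a difference in preparation therefore cannot be told apart from one between the constructs. The study calls its replicates independent, but neither it nor the labels say that they came from separate cultures, so the p-values measure the spread between these libraries, which may be technical. Expression was transient, so the cells of a culture need not have taken up the plasmids alike.

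HOX genes encode homeodomain transcription factors that give cells their position along the body axis. The genes stand in clusters in the order in which they act: paralogue groups 1 to 3 lie at the anterior end and shape the hindbrain and neck, groups 4 to 8 are central, and groups 9 to 13 lie at the posterior end and shape the lumbar region, limbs and urogenital tract. Silent HOX clusters are a textbook target of Polycomb and H3K27me3, whereas H3K9me3 and the HP1 proteins that bind it mark constitutive heterochromatin.

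The clusters also hold microRNA genes, shown here because they lie on the strand of a HOX gene and inside its span. The mature 5p strands below come from RefSeq (GRCh38.p14), with bases 2 to 8, the seed, in capitals.
hsa-miR-196a-5p: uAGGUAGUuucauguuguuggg
hsa-miR-196b-5p: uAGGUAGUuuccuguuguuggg
hsa-miR-10a-5p: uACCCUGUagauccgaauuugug
The miR-196 strands have the same seed and differ by 1 substitution, A12C, counted from the 5′ end of hsa-miR-196a-5p. They are known to pair with HOX mRNAs, above all that of HOXB8. In the count table MIR196A1 lay inside HOXB7, MIR196B inside HOXA9 and MIR10A inside HOXB3, and each had 0 counts in all 9 libraries. None of the 3 had a base outside another gene of its strand, so these zeros came with the counting rule and measure nothing of the microRNAs.

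Of the 5 members past an adjusted p in any comparison (HOXA7, HOXB3, HOXB7, HOXD9 and HOXD13), HOXA7 and HOXD13 had an entry in the RefSeq promoter table (GRCh38.p14), from 250 bases before the start to 50 after it. The table matched 20 of the 39 gene names, with 27 starts in all. Capitals mark the motifs searched on both strands, which were the homeodomain core TAAT (or ATTA), the TATA box letters TATAAA (or TTTATA) and the CCAAT box (or ATTGG).
HOXA7, chr7:27156626-27156925, minus strand: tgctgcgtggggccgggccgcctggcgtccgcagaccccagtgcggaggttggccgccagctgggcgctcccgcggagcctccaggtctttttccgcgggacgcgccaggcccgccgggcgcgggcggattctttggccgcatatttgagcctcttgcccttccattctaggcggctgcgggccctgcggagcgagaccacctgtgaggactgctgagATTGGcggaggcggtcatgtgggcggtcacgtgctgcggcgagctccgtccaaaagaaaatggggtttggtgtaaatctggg
HOXD13, chr2:176092471-176092770, plus strand: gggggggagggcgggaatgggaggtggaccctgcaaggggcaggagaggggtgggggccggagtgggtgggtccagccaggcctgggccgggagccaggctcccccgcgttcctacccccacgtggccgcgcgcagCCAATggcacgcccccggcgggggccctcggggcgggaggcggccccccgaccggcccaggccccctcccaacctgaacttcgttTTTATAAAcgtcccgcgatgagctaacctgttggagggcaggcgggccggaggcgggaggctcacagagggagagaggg
HOXD13 held CCAAT once and 2 overlapping matches to the TATA letters, while HOXA7 held only the CCAAT box, as ATTGG. The TATA letters were present in 18.5% of HOX starts and 11.5% of all 35116 starts, the CCAAT box in 66.7% and 34.6%, and TAAT in 77.8% and 50.2%. HOXA7 and HOXD13 had 31 and 24 CG dinucleotides in these 300 bases, against a median of 22 over HOX starts and 14 over all starts. No measurement in these libraries read the promoters themselves.

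How much of a HOX gene could be counted depended on its neighbours. Counts covered the whole span of a gene, introns included, kept the strands apart and left out read pairs that lay in more than 1 gene of a strand. Over all 771 coding genes with no base of their own on their strand, 744 had 0 counts, whereas 497 of the 719 coding genes that lay inside a coding gene of the other strand only had counts. HOX genes of a cluster share a strand and overlap often, so 12 of the 40 entries (30%) had no base outside another gene of their strand, compared with 3.79% of the 20345 coding genes.

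These 12 entries all had 0 counts, and their transcripts were not measured. In HOXA they were HOXA4, HOXA5 and HOXA6, which lay under the 46398-base span of HOXA3. In HOXB they were HOXB4 and HOXB5 under HOXB3, and HOXB8 and HOXB9 under HOXB7. In HOXC they were HOXC5, HOXC6, HOXC8 and HOXC9, under long spans of HOXC4 or HOXC6 and of a readthrough entry, RP11-834C11.12, which itself had 9 counts over the 9 libraries. In HOXD the only one was HOXD4, inside HOXD3. The central genes, groups 4 to 8, were thus the ones most often hidden. The second HOXC4 entry had 1 free base and 0 counts.

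**Figure D1:**
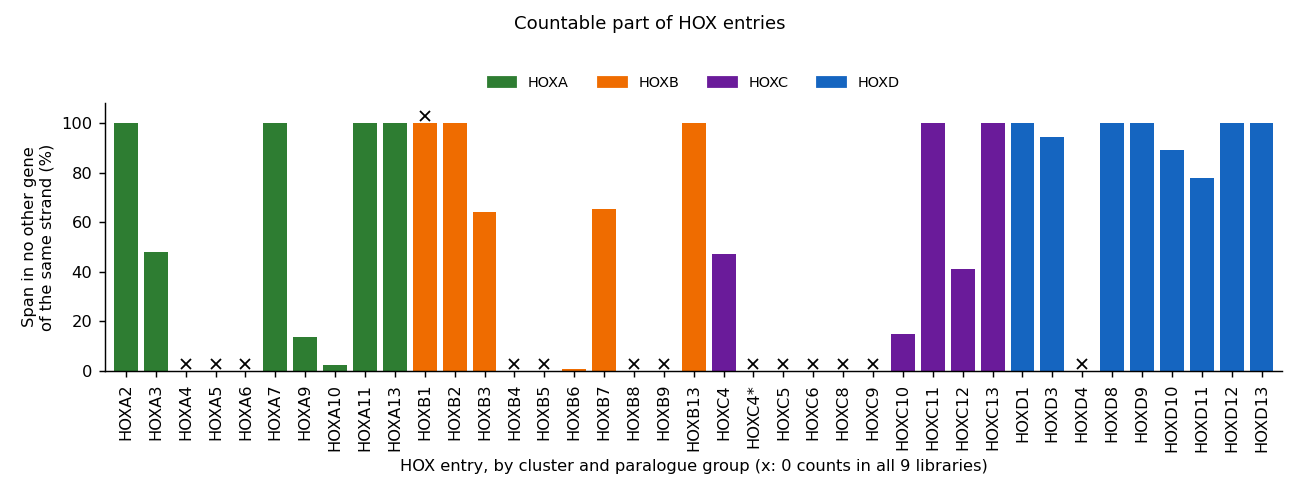
Share of the span (y axis, percent) of 39 of the 40 HOX entries that lay in no other gene of the same strand, by cluster and paralogue group (x axis). Crosses mark the 14 entries with 0 counts in all 9 libraries; 13 of these crosses stand at or next to a share of 0 and the other stands on HOXB1, whose span was 100% free, and the second HOXC4 entry is marked with an asterisk.

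The last entry at 0 was HOXB1, the most anterior HOXB gene, known from the fourth hindbrain segment. No other gene of its strand overlapped its span, so it could have been counted. A count of 0 allows up to 3 counts, or 0.271 to 0.358 counts per 1000000 (CPM) in a library, and these floors cover counting error only. The other 26 entries had counts. HOXB6 (8 counts over 9 libraries, 80 free bases) and HOXD12 (12 counts) were too low to test, and 24 members were tested in each comparison.

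HOX RNA was a small part of the captured RNA. The members took 5039 to 7314 counts per library, or 0.0537% to 0.0754% of totals between 8379542 and 11082852. Between 49.3% and 54.7% of the members' counts came from HOXD, and HOXD10 alone gave 26.2% to 31.6%. In CPM scaled by TMM factors, the HOXD entries summed to 283 to 337 CPM in Control, 321 to 343 CPM with CBX1 and 308 to 377 CPM with CBX1_W42A, and these ranges overlapped. HOXB entries summed to 141 to 165, 134 to 167 and 155 to 188 CPM in the same order, and HOXC entries to 53.8 to 56.3, 50.7 to 54.8 and 48.8 to 69.4 CPM. HOXA entries summed to 84.8 to 104 CPM in Control, 78.0 to 98.9 CPM with CBX1 and 102 to 106 CPM with CBX1_W42A, so that the CBX1 and CBX1_W42A ranges did not meet, with no test made on the sums.

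Levels between genes were compared as CPM per kb of free span, averaged over the 9 libraries. Introns count in this span, so the level of a gene with long introns, such as HOXA3, HOXB3, HOXB7, HOXC4 or HOXD3, is diluted. HOXA9 and HOXC10 were read from short stretches, so the order of levels mixes unlike spans. The top of the order was posterior. HOXD10, a limb and motor neuron gene, stood at 18.7 CPM per kb (range 14.8 to 21.7), and its neighbour HOXD11, which acts with HOXA11 in the kidney and forearm, at 13.9 (12.5 to 15.6). HOXD13, the most posterior gene of the cluster and a digit gene, followed at 11.9 (9.60 to 14.2). HOXD10 lay above HOXD11 and HOXD13 in 9 of 9 libraries, and HOXD11 lay above HOXD13 in 7 of 9. The ranges over all libraries met for HOXD10 and HOXD11 and for HOXD11 and HOXD13.

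Among the other clusters, HOXA9, a regulator of blood progenitors, had the highest level at 10.6 CPM per kb (8.52 to 13.8), read from the 1100 bases of its span (13.6%) that were free, none of them coding. HOXC10 stood at 8.73 (4.45 to 13.1) from 780 free bases. HOXD9 followed at 5.21 (2.99 to 6.93), HOXA7 at 4.41 (2.41 to 5.69) and HOXB7 at 3.97 (2.26 to 5.46), the last being the highest of HOXB. HOXB13, a prostate and tail gene, was at 3.62 (2.80 to 4.26) and HOXC13, a hair and nail gene, at 2.46 (1.92 to 3.36). All of these ranges touched that of the next gene named. Library by library, HOXB13 lay above HOXC13 in 9 of 9, while for each other pair of neighbours from HOXD13 to HOXB13 the order held in 5 to 8 of 9 libraries.

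The 15 entries whose spans were wholly free give levels that no neighbour cuts. The 5 anterior ones had a median of 1.27 CPM per kb, with HOXB1 at 0. The 8 posterior ones had a median of 3.04, from HOXD12 at 0.0741 to HOXD13 at 11.9. HOXD8 and HOXA7, the central ones, stood at 2.88 and 4.41. The posterior range contained the whole anterior range above 0.0741, so position alone did not order the levels. Little HOXD12 RNA was captured, with 0 to 3 counts per library, while its neighbours HOXD11 and HOXD13 were both among the 3 highest levels.

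The highest members are given by library. HOXD10, on chr2:176973518-176984670 (hg19, plus strand), had 183, 148 and 189 CPM in Control, 186, 191 and 183 CPM with CBX1, and 208, 169 and 216 CPM with CBX1_W42A. HOXD11, on chr2:176968944-176974722 with its end over the start of HOXD10, had 60.5, 61.6 and 61.6 CPM in Control, 55.9, 70.2 and 61.9 CPM with CBX1, and 63.96, 57.6 and 68.98 CPM with CBX1_W42A. The 3 groups overlapped for both genes.

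Among posterior members of the other clusters, HOXA9 (chr7:27202054-27210117, minus strand) had 10.4 to 15.2 CPM in Control, 10.4 to 12.2 CPM with CBX1 and 9.37 to 12.9 CPM with CBX1_W42A. HOXB13 (chr17:46802125-46806540, minus strand) had 17.4 to 17.5, 12.4 to 18.8 and 14.1 to 17.4 CPM in that order. HOXC10 (chr12:54378849-54384063, plus strand) had 6.14 to 9.46, 3.47 to 6.52 and 6.51 to 10.2 CPM, and HOXC13 (chr12:54332535-54340328, plus strand) had 17.4 to 20.99, 15.0 to 17.8 and 17.8 to 26.2 CPM. For HOXC10 and HOXC13 the CBX1 range started lowest of the 3, and it met the Control range.

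**Figure D2:**
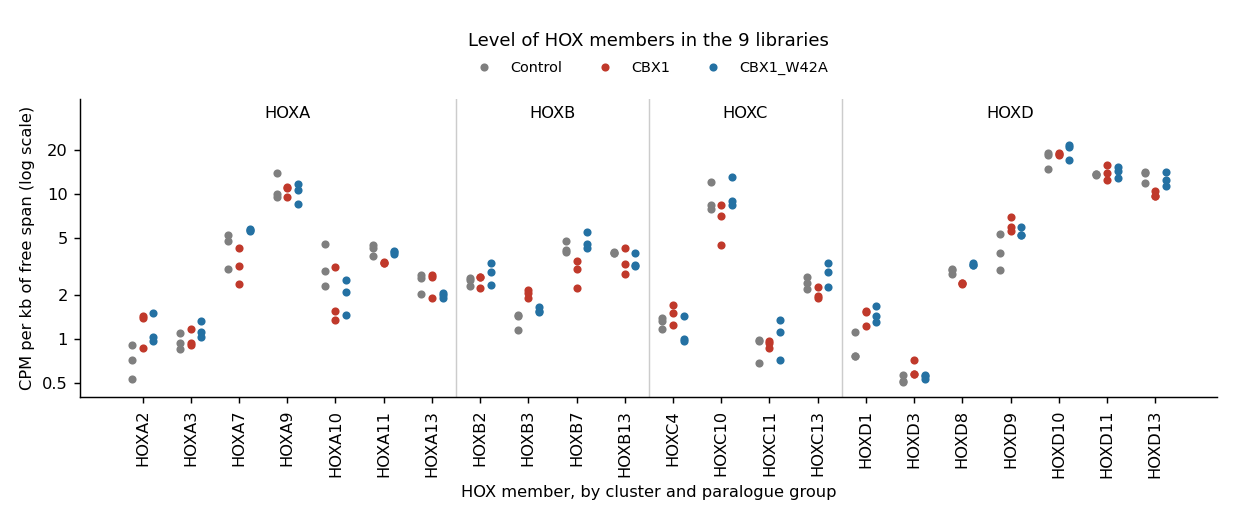
Level of 22 HOX members with at least 200 free bases and a count in every library (y axis, CPM per kb of own-strand free span, log scale), by cluster and paralogue group (x axis); each point is 1 library. HOXD10 stands highest in every library, and HOXC12 and HOXD12, which had libraries at 0, are not drawn.

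The cell line was checked with marker genes. Genes of HEK293T (NEFM, ENO2, PAX2, LHX1 and LIN28B) summed to 466 to 615 CPM in Control, 437 to 521 CPM with CBX1 and 417 to 476 CPM with CBX1_W42A, and those of H9 embryonic stem cells to at most 0.735 CPM. None of the 5 HEK293T markers was at 0, and LIN28B was lower than in Control in both reader groups, by log2 -0.52 (adjusted p = 0.000903) with CBX1 and -0.46 (adjusted p = 0.0303) with CBX1_W42A. LHX1, a kidney and limb-field transcription factor gene, was higher than in Control with CBX1_W42A (log2 0.70, adjusted p = 0.038), at 14.1 to 19.7 CPM against 10.04 to 12.0 CPM. Genes of HCT116 colon cells summed to 7.62 to 9.40 CPM with CBX1, 9.56 to 14.1 CPM in Control and 13.2 to 18.7 CPM with CBX1_W42A. Most of that sum was EPCAM, an adhesion gene, which was lower in CBX1 than in CBX1_W42A (log2 -1.06, adjusted p = 0.00356) and, by edgeR but not by DESeq2, than in Control (log2 -0.61, adjusted p = 0.0362). CDH17 was at 0 in all libraries, KRT20 in all but 1, and VIL1 and LGALS4 had at most 1.23 and 0.673 CPM.

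The first comparison asked which RNAs the H3K9me3 reader captured more than the reader-free array did. No HOX member reached the study's limits for enrichment (log2 fold change of at least 0.75 and adjusted p below 0.05), which 7.06% of the 18837 genes tested reached, and 0 members passed in the lower direction, which 0.34% of genes did. Without the fold limit, HOXB3 and HOXD9 rose and HOXB7 and HOXD13 fell, that is 2 of 24 members higher beside 10.6% of all genes and 2 of 24 lower beside 9.46%. These shares are near those of all genes. At an unadjusted p under 0.05 there were 4 members higher and 2 lower, beside 18.2% and 16.1% of all genes, and DESeq2 made the same calls as edgeR's quasi-likelihood test (0 and 0 with the fold limit, 2 and 2 without it).

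HOXB3, an anterior gene of the hindbrain and of blood progenitors, lies on chr17:46626232-46682274 (hg19, minus strand). Its span overlaps HOXB4, HOXB5, HOXB6 and MIR10A, and 64.2% of it was free, with all of the HOXB3 coding sequence. Whether the reads of the free part came from HOXB3 transcripts alone was not tested. HOXB3 had 52.6, 41.9 and 51.7 CPM in Control replicates 1 to 3, 69.1, 74.7 and 78.6 CPM with CBX1, and 54.9, 56.6 and 59.8 CPM with CBX1_W42A. Every CBX1 library stood above every library of the other groups. The rise over Control was 1.53-fold (log2 0.61, SE 0.11, adjusted p = 0.00107).

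HOXD9, a posterior gene of the limb and lumbar spine, lies on chr2:176987088-176989853 (plus strand). It had 10.8, 8.26 and 14.6 CPM in Control, 15.4, 19.2 and 16.2 CPM with CBX1, and 14.3, 14.5 and 16.4 CPM with CBX1_W42A. The CBX1 libraries stood above the Control libraries, by a small margin at the nearest pair, and overlapped the CBX1_W42A libraries. The rise over Control was 1.53-fold (log2 0.61, SE 0.18, adjusted p = 0.0254). The call was lost without Control replicate 1 (log2 0.58), Control replicate 2 (log2 0.43), CBX1 replicate 2 (log2 0.51) or CBX1 replicate 3 (log2 0.64), with adjusted p between 0.0622 and 0.0948, and without Control replicate 3 the value was 0.83 and past the fold limit.

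HOXB7, a central gene also known from tumour growth, lies on the posterior side of HOXB3, on chr17:46684594-46710934 (minus strand). Its span holds HOXB8 and HOXB9, and 65.3% of it was free, with all of the HOXB7 coding sequence. Whether the reads of the free part came from HOXB7 transcripts alone was not tested. HOXB7 had 81.5, 68.3 and 70.2 CPM in Control, 38.8, 59.4 and 52.0 CPM with CBX1, and 73.1, 78.2 and 93.9 CPM with CBX1_W42A. The CBX1 libraries were the lowest of the 9, while the Control and CBX1_W42A libraries overlapped. Against Control HOXB7 fell by 0.54 on the log2 scale (SE 0.13, adjusted p = 0.00793), to a fold of 0.687. Thus HOXB3 and HOXB7, next to each other among the tested genes of HOXB, moved in opposite directions.

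HOXD13, on chr2:176957619-176960666 (plus strand), had 42.8, 36.2 and 42.3 CPM in Control, 29.4, 31.9 and 29.3 CPM with CBX1, and 38.1, 34.4 and 43.2 CPM with CBX1_W42A. The CBX1 libraries lay below all others. Against Control it fell by 0.41 on the log2 scale (SE 0.11, adjusted p = 0.015). The call was lost without Control replicate 1 (log2 -0.37) or 3 (log2 -0.38), or without CBX1 replicate 1 or 3 (both log2 -0.39), at adjusted p between 0.0508 and 0.0651.

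**Figure D3:**
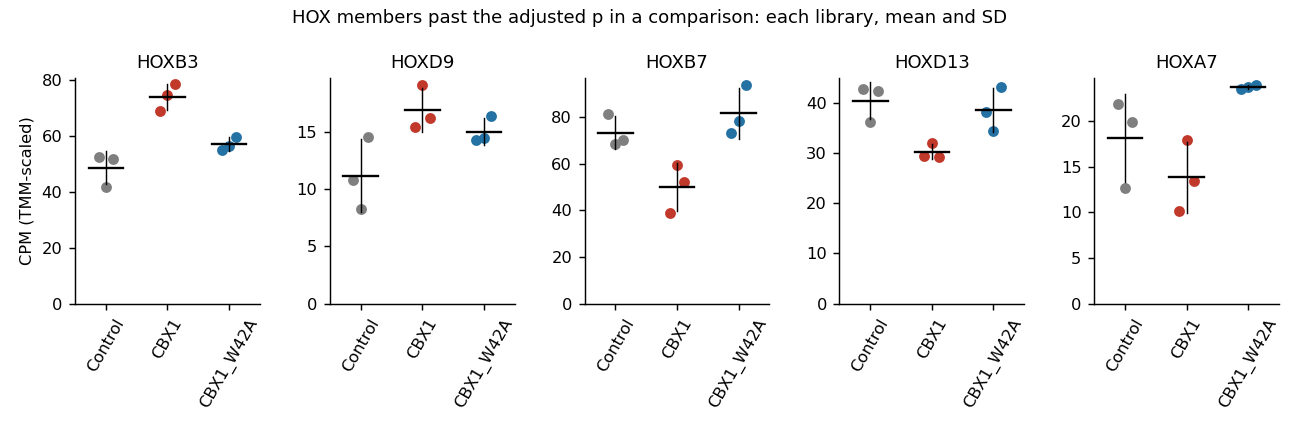
CPM (TMM-scaled, y axis from 0) of the 5 HOX members past an adjusted p of 0.05 in some comparison, in the 3 groups (x axis); points are libraries, horizontal bars the mean and vertical bars the SD of 3 libraries. CBX1 libraries stand highest for HOXB3 (69.1 to 78.6 CPM) and lowest for HOXB7 (38.8 to 59.4 CPM) and HOXD13 (29.3 to 31.9 CPM), and the HOXA7 libraries of CBX1_W42A lie between 23.5 and 24.0 CPM.

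The other 20 tested members did not pass against Control. HOXA2, a gene of the second pharyngeal arch, had the highest fitted value, log2 0.80 (SE 0.33, adjusted p = 0.10), on 15 to 40 counts per library. HOXD10 was at log2 0.12 (SE 0.10) and HOXD11 at 0.04 (SE 0.10), with approximate 95% intervals from -0.08 to 0.31 and from -0.16 to 0.24. These intervals take a normal multiple of the SE and are narrower than the quasi-likelihood test implies, so counts of members within a limit may be too high. HOXA9 was at -0.06 (SE 0.17), HOXB13 at -0.19 (SE 0.16), HOXC10 at -0.50 (SE 0.25) and HOXC13 at -0.24 (SE 0.14). For 15 of the 24 members the approximate 95% interval lay within 0.75 of no change in both directions, and for 9 members it did not. Among these 9 were HOXA10 and HOXC12, with 3 to 10 and 0 to 5 counts per library in this comparison.

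The median log2 fold change of the 24 members was -0.03, with 12 above 0, against a median of 0.03 over all genes tested. Of all genes tested, 52.9% were above 0. By position the medians were 0.25 for 7 anterior, -0.34 for 4 central and -0.19 for 13 posterior members, and 6 of the 7 anterior members were above 0. By cluster they were -0.18 (HOXA, 8 members), -0.08 (HOXB, 4), -0.24 (HOXC, 5) and 0.12 (HOXD, 7). Across the 24 members the log2 fold change had a Spearman correlation of -0.44 with the paralogue group, a description over genes that share libraries and neighbours and are not replicates. With mean CPM the correlation was 0.17. Scaling by upper-quartile factors or by library size alone turned the median of all 24 members to 0.05 and 0.06, beside 0.11 and 0.12 over all genes, while the anterior medians stayed above 0 and the central and posterior medians below 0. The HOXB median turned to 0.00 and 0.01, and the medians of the other clusters held their sign.

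The second comparison asked what the mutant chromodomain captured beyond the reader-free array. No HOX member passed in CBX1_W42A against Control. With the fold limit 0 of 24 members were higher and 0 lower, beside 0.974% and 0.0214% of the 18680 genes tested, and without it 0 and 0, beside 1.37% and 1.25%. DESeq2 called 0 members in each direction, and at an unadjusted p under 0.05 there were 3 members higher (HOXA7, HOXD1 and HOXD9) and 0 lower, beside 9.66% and 9.61% of all genes. Few genes of any kind passed in this comparison.

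HOXD1, the most anterior gene of HOXD, on chr2:177053307-177055688 (plus strand), had 1.83, 2.68 and 1.84 CPM in Control, 3.69, 3.70 and 2.92 CPM with CBX1, and 3.44, 3.15 and 4.0 CPM with CBX1_W42A. Both reader groups stood above the Control libraries and overlapped each other. Its log2 fold change was 0.74 (SE 0.31, adjusted p = 0.203) in CBX1_W42A against Control and 0.70 (SE 0.31, adjusted p = 0.116) in CBX1 against Control, on 15 to 38 counts per library. HOXD9 was at 0.43 (SE 0.19, adjusted p = 0.218). HOXA7 was at 0.38 (SE 0.17, adjusted p = 0.219), and at 0.20 without Control replicate 2, its lowest Control library.

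The median of the 24 members in this comparison was 0.12, against 0.01 over all genes tested, and 16 members were above 0. Of all genes tested, 51.7% were above 0. All 7 anterior members were above 0, with a median of 0.23, while the 4 central members had a median of 0.15 and the 13 posterior members of -0.05, which turned to 0.04 with upper-quartile factors and 0.02 with library size alone. The Spearman correlation of the log2 fold change with the paralogue group was -0.51 over 24 members. This comparison used the same 3 Control libraries as the first, so the values of the pair are not independent. For 18 members the approximate 95% interval lay within 0.75 of no change, and for HOXA2, HOXA10, HOXC11, HOXC12, HOXD1 and HOXD9 it did not.

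The third comparison set the reader against its own mutant, and any difference in preparation between these groups is part of it. HOXA7 was the 1 member that passed both limits, and it was lower with CBX1, as were 0.201% of the 19360 genes tested. In the higher direction 0 of 24 members passed, beside 0.795% of genes. Without the fold limit HOXA7 and HOXB7 fell, 2 of 24 members beside 0.925% of genes, and 0 members rose, beside 1.32%. DESeq2 gave the same 1 and 2 members, and at an unadjusted p under 0.05 there were 7 members lower and 2 higher, beside 8.4% and 8.23% of all genes.

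HOXA7, a central gene of the trunk, lies on chr7:27193335-27197555 (minus strand), and no gene of its strand overlaps it. It had 21.9, 12.7 and 19.96 CPM in Control, 10.2, 17.9 and 13.4 CPM with CBX1, and 23.5, 23.7 and 24.0 CPM with CBX1_W42A. The CBX1_W42A libraries lay close together above the rest, and the CBX1 libraries overlapped those of Control. HOXA7 fell by 0.80 on the log2 scale (SE 0.17, adjusted p = 0.0125), to a fold of 0.575. The adjusted p was 0.0956 without CBX1 replicate 1 (log2 -0.62) and 0.0637 without CBX1 replicate 3 (log2 -0.78). Against Control the CBX1 value of HOXA7 was -0.39 (SE 0.20, adjusted p = 0.189), and it passed without Control replicate 2 (log2 -0.60, adjusted p = 0.0239). The summed HCT116 markers, mostly EPCAM, were also lower with CBX1 than with CBX1_W42A, as given above, while the other 2 tested markers had log2 values of 0.64 (VIL1) and 0.59 (LGALS4) and did not pass. Their part in this result was not tested.

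HOXB7, the paralogue of HOXA7 in HOXB, fell by 0.72 on the log2 scale (SE 0.13, adjusted p = 0.00552), to a fold of 0.605, with all 3 CBX1 libraries below all 3 CBX1_W42A libraries. Its fall passed the fold limit too when CBX1 replicate 2 (log2 -0.86), CBX1 replicate 3 (log2 -0.75) or CBX1_W42A replicate 1 (log2 -0.79) was left out. HOXA7 and HOXB7, the group 7 genes, were the only members past the adjusted p in this comparison. Against Control, with all libraries, CBX1 passed for HOXB7 (log2 -0.54, SE 0.13) and not for HOXA7 (log2 -0.39, SE 0.20). Both fitted values were negative, and a difference between the genes was not tested. HOXC has no group 7 gene in the table, and HOXD has none. HOXB3 was higher with CBX1 in all libraries, at log2 0.36 (SE 0.11), and missed the threshold (adjusted p = 0.0766). HOXD13 was at -0.37 (SE 0.12, adjusted p = 0.114) and HOXD8 at -0.45 (SE 0.18, adjusted p = 0.209), both with the CBX1 libraries below those of CBX1_W42A.

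In HOXC, HOXC13 was at log2 -0.48 (SE 0.16, adjusted p = 0.106) and HOXC10 at -0.62 (SE 0.25, adjusted p = 0.20). HOXC4 was at 0.37 (SE 0.16, adjusted p = 0.229), a value read outside its coding sequence, since 0% of that sequence was free. HOXD10, HOXD11, HOXA9 and HOXB13 had log2 values of -0.10 (SE 0.11), -0.04 (SE 0.11), 0.01 (SE 0.18) and -0.03 (SE 0.17). The median over the 24 members was -0.15, with 7 above 0, against -0.00 over all genes tested. Of all genes tested, 49.4% were above 0. The 4 central members had a median of -0.59, the 7 anterior of -0.06 and the 13 posterior of -0.10, and the sign of each held under the 3 other scalings. The Spearman correlation with the paralogue group was -0.15. A lower count in a library can come from fewer cells with the RNA, less RNA per cell or less capture, and these cannot be told apart here, since total RNA of the same cells was not analysed.

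**Figure D4:**
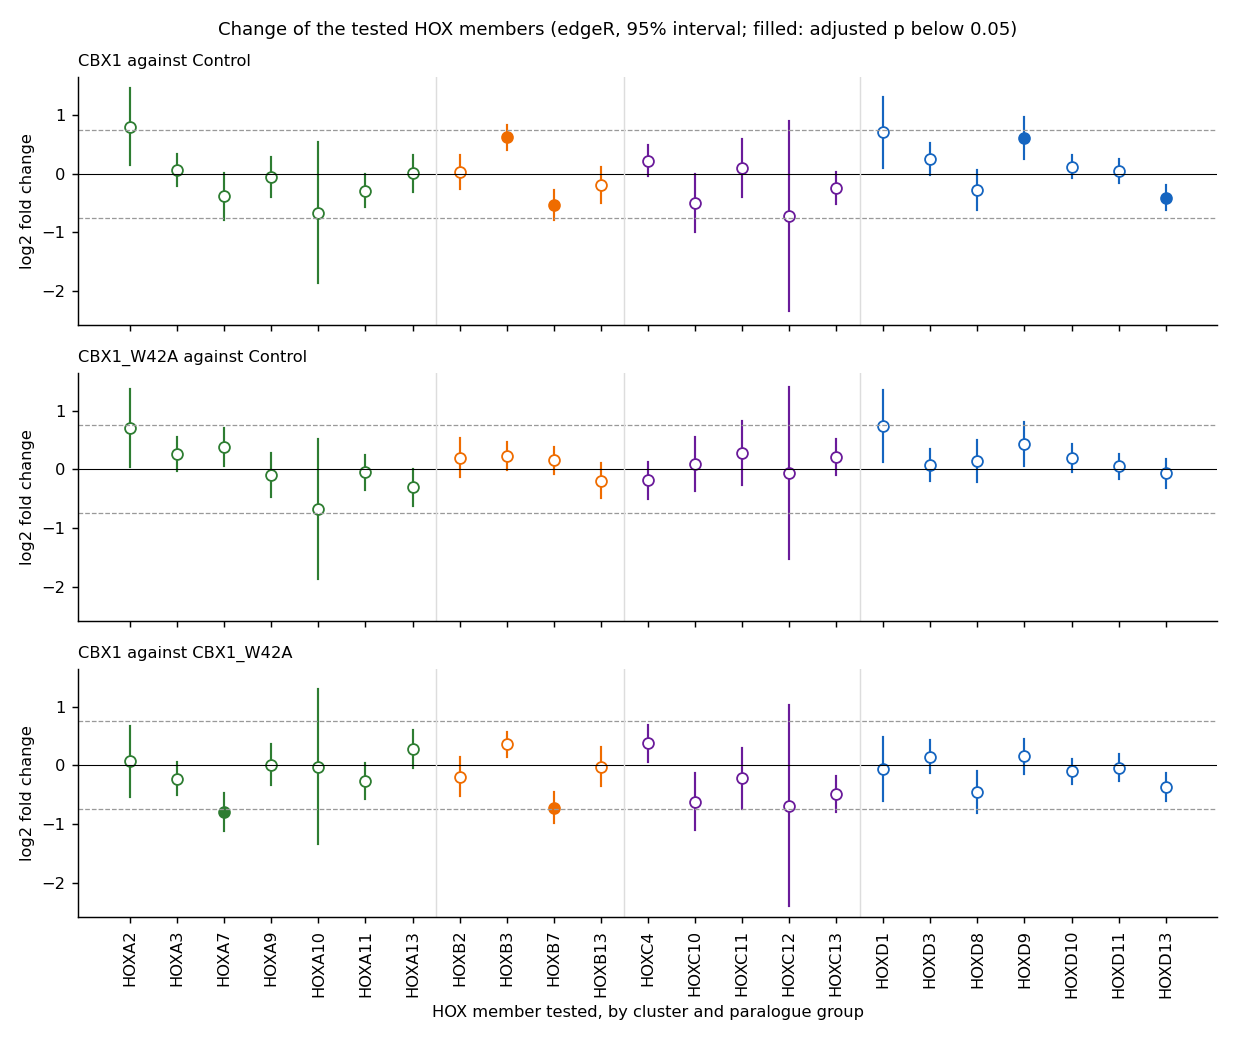
Log2 fold change (y axis) of 23 of the 24 tested HOX members in the 3 comparisons (panels), by cluster and paralogue group (x axis); bars are approximate 95% intervals (a normal multiple of the SE), filled points have an adjusted p below 0.05 and dashed lines stand at 0.75 and -0.75. Filled points are HOXB3, HOXD9, HOXB7 and HOXD13 in the first panel, none in the second, and HOXA7 and HOXB7 in the third.

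The genes around the HOX system were counted against the same shares of all genes at any fold: 10.6% higher and 9.46% lower in CBX1 against Control, 1.37% and 1.25% in CBX1_W42A against Control, and 1.32% and 0.925% in CBX1 against CBX1_W42A. At an unadjusted p under 0.05 the shares were 18.2% and 16.1%, 9.66% and 9.61%, and 8.23% and 8.4% in the same order. Among the proteins that work with HOX factors, the PBX, MEIS and PKNOX cofactors, which bind DNA beside them, did not pass in any comparison by edgeR or DESeq2 (0 of 9 tested). At an unadjusted p under 0.05 there were 0 in CBX1 against Control and 1 lower in each of the others. The values closest to passing in CBX1 against Control were MEIS3 at log2 0.30 (adjusted p = 0.179), PBX3 at -0.22 (adjusted p = 0.186) and PKNOX2 at 0.25 (adjusted p = 0.231). The median of the 9 was -0.06.

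Of 8 genes for factors that switch HOX genes on, CDX1 and CDX4 had 0 counts and 6 were tested. RARA, a retinoic acid receptor, rose in CBX1 against Control without reaching the fold limit, by log2 0.36 (adjusted p = 0.0287), and was the 1 of 6 to pass, by DESeq2 too. It had 51.7 to 56.9 CPM in Control and 60.1 to 81.8 CPM with CBX1. With CBX1_W42A RARA had 65.4 to 82.1 CPM (log2 0.41 against Control, adjusted p = 0.0604), and CBX1 and CBX1_W42A differed by log2 -0.07. EGR2, a hindbrain activator of HOXA2 and HOXB2 and an immediate early gene, fell in CBX1 against CBX1_W42A (log2 -1.38, adjusted p = 0.00187), past both limits. It had 6.28, 4.58 and 6.37 CPM in Control, 3.47, 3.92 and 3.60 CPM with CBX1, and 8.96, 8.08 and 11.3 CPM with CBX1_W42A, so the 3 groups did not overlap. Against Control EGR2 was at -0.64 with CBX1 (adjusted p = 0.0658), and CDX2, a caudal factor, at -0.32 (adjusted p = 0.0741). In CBX1_W42A against Control edgeR called 0 of the 6 and DESeq2 called 1 higher (RARA), with 2 higher at an unadjusted p under 0.05.

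Of 9 genes of the MLL complexes, which place H3K4 methylation at HOX genes, KMT2B lay wholly under another gene of its strand at 0 counts. In CBX1 against Control 3 of the 8 tested fell at any fold, beside 9.46% of all genes, and 0 rose, beside 10.6%, and none reached the fold limit. ASH2L, a core subunit, fell by 0.53 on the log2 scale (adjusted p = 0.00143), RBBP5, its partner, by 0.45 (adjusted p = 0.00558) and PSIP1, which tethers the complex to chromatin, by 0.35 (adjusted p = 0.0248). The median of the 8 was -0.17. In the other comparisons 0 of the 8 passed by either tool. At an unadjusted p under 0.05, 1 was lower in CBX1_W42A against Control and 4 in CBX1 against CBX1_W42A, beside 9.61% and 8.4% of all genes. In CBX1_W42A against Control, ASH2L was at log2 -0.33 (adjusted p = 0.09), RBBP5 at -0.23 (adjusted p = 0.284) and PSIP1 at -0.18 (adjusted p = 0.343). For each of these genes the CBX1_W42A libraries lay below those of Control.

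The noncoding genes inside the clusters were 41, of which 14 had 0 counts and 21 were tested against Control. HOXB-AS1, an antisense RNA beside HOXB3, rose in CBX1 against Control by log2 0.46 (adjusted p = 0.0392), from 11.0 to 12.6 CPM in Control to 14.3 to 17.2 CPM, as the 1 of 21 to pass with edgeR, while DESeq2 called 0. With CBX1_W42A it had 14.7 to 17.6 CPM (log2 0.43 against Control, adjusted p = 0.153), and CBX1 and CBX1_W42A differed by log2 -0.00. HOXB-AS3 was at 0.37 (adjusted p = 0.104) and HOXA-AS4 at -0.23 (adjusted p = 0.303). In CBX1 against CBX1_W42A, HOXC-AS5 fell by 0.73 on the log2 scale (adjusted p = 0.0382), with 7.61 to 7.97 CPM with CBX1 and 11.1 to 15.2 CPM with CBX1_W42A, as the 1 of 22 to pass with either tool. In CBX1_W42A against Control 0 of the 21 passed with either tool, and 5 were higher at an unadjusted p under 0.05, beside 9.66% of all genes. HOTAIR, a noncoding RNA of HOXC known to act with Polycomb, had 14.4 to 18.4 CPM in Control, 17.1 to 19.4 CPM with CBX1 and 17.2 to 19.5 CPM with CBX1_W42A, and did not pass in any comparison. Strands were counted apart, so reads placed on the strand of an antisense gene were not given to the HOX gene opposite. Whether some reads were placed on the wrong strand was not tested.

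Of the 16 coding genes that flank the clusters, 13 were tested, and in CBX1 against Control 1 rose and 1 fell at any fold. CALCOCO2, an autophagy receptor beyond the HOXB end, fell by 0.48 on the log2 scale (adjusted p = 0.00253), and CALCOCO1, a coactivator beside HOXC, rose by 0.37 (adjusted p = 0.0178). CBX5, which encodes HP1α and lies beyond HOXC, was at 0.21 (adjusted p = 0.111). EVX1 and EVX2, the homeobox genes next to HOXA13 and HOXD13, had at most 0.362 and 0.245 CPM. In the other comparisons edgeR called 0 of the 13, and DESeq2 called 2 lower (CALCOCO2 and KIAA1715) in CBX1_W42A against Control. At an unadjusted p under 0.05 there were 1 higher and 2 lower in that comparison, and 3 higher and 2 lower in CBX1 against CBX1_W42A.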

How the data were processed

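The data were 9 Chrom-seq libraries of HEK293T cells (3 of each group). Per the labels and the paper's methods, the authors trimmed reads with fastp (v0.23.1), aligned them to hg19 with HISAT2 (v2.1.0), and deposited whole-number counts per GENCODE v19 gene from featureCounts (v2.0.1), without normalization. The strand setting and the use of whole spans were read from the table itself. Groups came from the sample labels, and 0 columns were left out.

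In R (v4.3.3), edgeR (v4.0.16) with TMM factors and its quasi-likelihood test compared 2 groups (6 libraries) at a time over all genes whose counts summed to more than 18, with Benjamini-Hochberg adjustment over all of them. The filter and limits follow the study's methods. CPM were TMM-scaled, and means carry no prior count. Free span was computed from the coordinates in the table, and coding bases from GENCODE v44 lifted to GRCh37. DESeq2 (v1.42.0), 3 other scalings, 3 other filters, all 9 libraries in one fit, the replicate block, a lowess abundance offset (span 0.3) and leaving out single libraries were alternatives. On counts simulated for CBX1 against Control (18525 genes), edgeR recovered 159 of the 194 changed genes tested, with 2 false calls. DESeq2 recovered 150, with 1 false call. Recovery at the fold changes of the HOX members was not tested. No 2 libraries of a group agreed within sampling noise. Tables were made in Python (v3.11.15) with pandas (v2.3.3). NEFL, a further HEK293T marker of the list, has no coding entry in the table and was left out. Values of 1 HOX member are not reported here on their own or drawn, and it stays in the counts and medians. The members and lists were chosen with earlier results of these data known. Named in full are members past an adjusted p, the 3 with the smallest p in each comparison, the 2 highest levels per cluster and covered members. Of each other list, the 3 with the smallest p in CBX1 against Control and any called are named; HOTAIR, EVX1, EVX2, EPCAM and further members were added after their values were seen.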

Additional observations from a re-analysis of the deposited data

Results flagged for a closer look

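HOXA7 and HOXB7 differed between the CBX1 reader and its W42A mutant when the reader groups were compared directly. The log2 differences were -0.80 for HOXA7 (adjusted p = 0.0125) and -0.72 for HOXB7 (adjusted p = 0.00552), and in both genes all 3 CBX1 libraries lay below all 3 CBX1_W42A libraries. For HOXA7 neither reader group passed the adjusted p against Control with all libraries, with log2 values of -0.39 for CBX1 and 0.38 for CBX1_W42A. Leaving out 1 library moved these to between -0.62 and -0.22 and between 0.20 and 0.56, and without Control replicate 2 CBX1 passed (adjusted p = 0.0239). Groups of 3 libraries were too small for a search for single outlying libraries.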

How the results depend on the processing

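In CBX1 against Control, the count of members past both limits was 0 higher and 0 lower, and became 2 and 2 with no minimum fold change. Leaving out 1 library gave 0 to 1 members higher, the 1 being HOXD9 without Control replicate 3. At any fold, 2 members were higher and 2 lower. Removing the abundance trend left 1 higher (HOXD9 lost, adjusted p = 0.0584), scaling by library size alone left 1 lower (HOXD13 lost, adjusted p = 0.0545), and leaving out 1 library gave 1 to 2 higher and 1 to 3 lower. In CBX1_W42A against Control all counts stayed at 0. In CBX1 against CBX1_W42A, 1 member was lower past both limits, 0 at a minimum log2 fold change of 1, 2 with no minimum, and 0 to 2 when a library was left out. At any fold, 2 were lower, and 1 to 2 without single libraries. HOXB3 and HOXB7 against Control, and HOXB7 against CBX1_W42A, kept direction and call under all 16 alternatives, and 0 calls reversed.

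The replicate numbers did not pair the libraries: correlations of same-numbered libraries lay between -0.078 and 0.077. With the replicate block, HOXB3 passed in CBX1 against CBX1_W42A (log2 0.36, adjusted p = 0.039), giving 1 member higher at any fold and 3 lower. Library size alone moved the median over all genes in CBX1 against Control from 0.03 to 0.12. Low counts limit HOXC12 and HOXD12, a small free span limits HOXA10 and HOXB6, and 12 covered entries give no value.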
